A study of Homo sapiens with 2 samples.

Results

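The genes of the human mitochondrial genome were examined in RNA of extracellular vesicles, small membrane-bound particles released by cells. The vesicles came from LAD2, a human mast cell line. The members were all rows of both deposited tables whose identifier maps to a symbol starting with MT-. There were 36 of them among 14467 genes with a value: 13 protein-coding genes, 21 transfer RNA genes and 2 ribosomal RNA genes. Of the 37 genes annotated on the mitochondrial chromosome, MT-TV, a valine transfer RNA gene, is not analysed here because neither table has a row for it. The series has 1 group of 2 libraries, replicates 1 and 2. Both came from vesicles collected after 4 days of culture of the same cell line, kept with stem cell factor at 37 °C and 5% CO2. There is no control, so levels were compared between genes and between the 2 libraries, and no p-value can be given. Nothing in the labels ties the replicates to separate cultures, and the spread between them may be technical.

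Mitochondrial DNA is a small circular genome that encodes core subunits of the respiratory chain and the ribosomal and transfer RNAs that translate them. Both of its strands are transcribed into long precursors, and the transfer RNAs that lie between most of the other genes are cut out, which frees the messenger and ribosomal RNAs. The strand called plus in the annotation carries most of the coding sequence, so RNA opposite to it is largely non-coding apart from MT-ND6 and a minority of the transfer RNAs. In GENCODE 29 (build GRCh38, the same as hg38), 28 of the 37 genes are annotated on the plus strand and 9 on the minus strand, and no other gene is annotated on this chromosome. The opposite strand of every mitochondrial gene is thus without annotation, except where neighbours on opposite strands share bases.

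Values are log2 as deposited. Comparisons of levels between genes used the log2 value per kilobase of exon, which raises short genes relative to long ones. No source used here gives the strand rule of the counting. Which strand's RNA the value of a mitochondrial gene measures is therefore uncertain. Depth is not given either, and even steps among the lowest values put it near 2100000 counted reads for replicate 1 and 1600000 for replicate 2. Of the 10 mast cell markers, 9 had a value and 2 of these, GATA2 and MRGPRX2, reached a linear value of 10 in both libraries, whereas KIT stood at 2.19 ± 0.01 (mean log2 value ± SD, n = 2). No marker of T cells (0 of 4) or hepatocytes (0 of 2) had a value, against 2 of 4 for epithelium and 2 of 4 for macrophages. None of the epithelial markers reached 10 in both libraries, whereas the macrophage marker CSF1R did, at 3.93 ± 0.02, level with MRGPRX2 at 3.92 ± 0.08. Among all genes 45.5% reached it, so these counts do not set mast cell markers apart. Whether MRGPRX2 or CSF1R had reads in 1 library alone was not checked, as they lie above the levels where this was looked for.

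The transfer RNA genes between MT-ND2 and MT-CO2 carried the clearest contrast between strands, so their GENCODE 29 sequences are shown 5′ to 3′ in genome order, with the anticodon in capitals. The anticodon was taken as the 3 middle bases of a 7-base loop closed by a 5-pair stem with at least 4 pairs, where it decodes to the amino acid in the gene's name. MT-TW (tryptophan, chrM:5512-5579) and MT-TD (aspartate, chrM:7518-7585) are on the plus strand. MT-TA (alanine, chrM:5587-5655), MT-TN (asparagine, chrM:5657-5729), MT-TC (cysteine, chrM:5761-5826), MT-TY (tyrosine, chrM:5826-5891) and MT-TS1 (serine, chrM:7446-7514) are on the minus strand.
MT-TW: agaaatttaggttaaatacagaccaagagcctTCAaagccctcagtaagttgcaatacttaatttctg
MT-TA: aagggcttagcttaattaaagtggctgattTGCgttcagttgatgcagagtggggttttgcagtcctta
MT-TN: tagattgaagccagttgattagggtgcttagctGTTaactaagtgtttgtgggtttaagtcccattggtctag
MT-TC: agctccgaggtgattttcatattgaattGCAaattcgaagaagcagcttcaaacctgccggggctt
MT-TY: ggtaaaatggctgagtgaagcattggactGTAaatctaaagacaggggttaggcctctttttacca
MT-TS1: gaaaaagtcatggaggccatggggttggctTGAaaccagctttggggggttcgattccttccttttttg
MT-TD: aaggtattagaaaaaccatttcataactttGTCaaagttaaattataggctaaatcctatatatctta

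Members on opposite strands share bases at a single place, where the isoleucine gene MT-TI (plus strand, chrM:4263-4331) and the glutamine gene MT-TQ (minus strand, chrM:4329-4400) meet tail to tail. The 3 shared bases are in capitals.
MT-TI: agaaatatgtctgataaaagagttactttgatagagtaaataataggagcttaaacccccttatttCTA
MT-TQ: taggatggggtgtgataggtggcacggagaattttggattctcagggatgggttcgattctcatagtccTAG

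Mitochondrial genes stood high per unit of length. All 36 lay above the median of the 13733 genes with a GENCODE 29 model, and 30 lay above the 90th percentile. The median log2 value per kilobase was 8.63 for the members, against 1.78 for all genes with a model. Without division by length the gap was smaller, with median deposited values of 6.25 for the members and 3.06 for all genes with a value. Of the 36 members, 31 were detected, meaning that their linear value was 10 or more in each library, against 45.5% of all genes. The 5 members below it were the transfer RNA genes MT-TF, MT-TL1, MT-TW, MT-TK and MT-TE. Their mean deposited values also lay below the median of all genes, so their place above it per kilobase rests on their short length. For MT-TM and MT-TS2, counted among the 31, the pairs of values lie on steps taken to mean reads in replicate 1 alone, so their replicate 2 value is no sign of reads there. Read length is not given, and a read can overlap a short gene only in part. With 100 bases added to every gene's length, 26 of the 36 members remained above the 90th percentile and all 36 above the median.

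**Figure D1:**
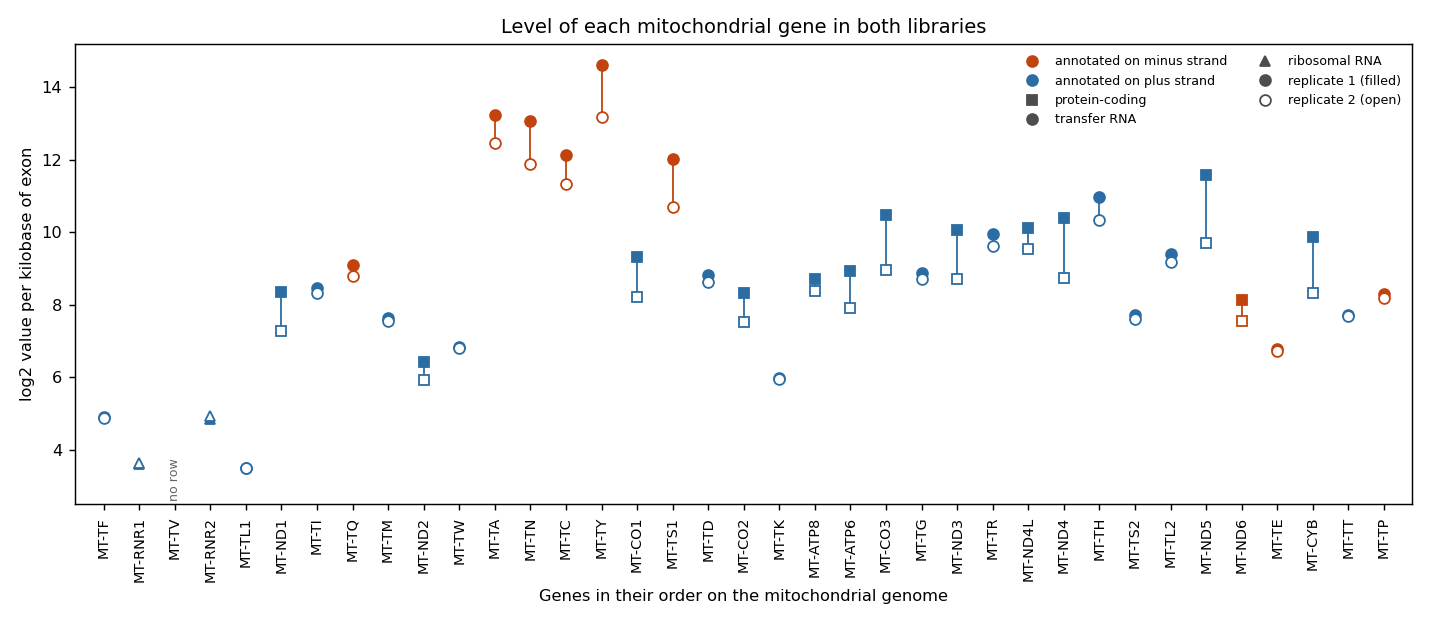
log2 value per kilobase of exon (vertical axis) of the 36 mitochondrial genes in the order in which they lie on the genome (horizontal axis), with replicate 1 as filled and replicate 2 as open symbols, orange for the minus and blue for the plus strand. The 5 minus-strand transfer RNA genes from MT-TA to MT-TS1 rise to between 10.71 and 14.63, while both ribosomal RNA genes, MT-TF and MT-TL1 lie below 5.

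Among transfer RNA genes, those annotated on the minus strand had the higher levels. The 8 minus-strand genes had a median of 11.55 log2 units per kilobase, and the 13 plus-strand genes with a value 7.70, a gap of 3.84. Taken library by library the gap was 4.37 in replicate 1 and 3.32 in replicate 2, and it exceeded its SD of 0.738 between libraries. Lengths hardly enter this comparison, since all 21 genes are between 59 and 75 bases long, and the gap of the deposited values was 3.88. Genes of a class are not replicates of a condition, so the gap is a description without a test. Values of the lower genes are drawn together between libraries, and several lie on steps taken to mean reads in replicate 1 alone. The SD of the gap may therefore understate its spread. The strands overlapped, as 3 of the 8 minus-strand genes lay within the range of the plus-strand genes.

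The minus-strand genes fell into 2 sets by their place on the genome, a division made after their values were seen. The 5 between MT-ND2 and MT-CO2 ranged from 11.36 to 13.91 per kilobase. MT-TY, the tyrosine transfer RNA gene (ENSG00000210144), was the highest at 14.63 in replicate 1 and 13.20 in replicate 2. It was followed by MT-TA for alanine (13.23 and 12.46), MT-TN for asparagine (13.08 and 11.90), MT-TC for cysteine (12.15 and 11.32) and MT-TS1 for serine (12.02 and 10.71). In each library all 5 were above MT-TH, the histidine gene and the highest on the plus strand, which had 10.97 in replicate 1 and 10.34 in replicate 2. The other 3 minus-strand genes were lower, with MT-TQ for glutamine at 9.09 and 8.79, MT-TP for proline at 8.30 and 8.19 and MT-TE for glutamate at 6.79 and 6.73. These 3 had a median of 8.25, which lay near the plus-strand median.

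Plus-strand transfer RNA genes ranged from 3.50 to 10.65 log2 units per kilobase. Below MT-TH came MT-TR for arginine at 9.78 ± 0.23 per kilobase and MT-TL2 for leucine at 9.30 ± 0.15. MT-TG for glycine (8.80 ± 0.11), MT-TD for aspartate (8.73 ± 0.15) and MT-TI for isoleucine (8.40 ± 0.09) formed the middle. MT-TT for threonine, MT-TS2 for serine and MT-TM for methionine lay within 0.11 of each other, at 7.70 ± 0.02, 7.66 ± 0.07 and 7.59 ± 0.07. MT-TW for tryptophan stood at 6.82 ± 0.04 and MT-TK for lysine at 5.97 ± 0.02. The lowest were the genes that flank the ribosomal RNAs, MT-TF for phenylalanine at 4.89 ± 0.01 and MT-TL1, the other leucine gene, at 3.50 in both libraries. Here and for all members the SD at low levels is small because the deposited values of a gene are drawn together there.

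**Figure D2:**
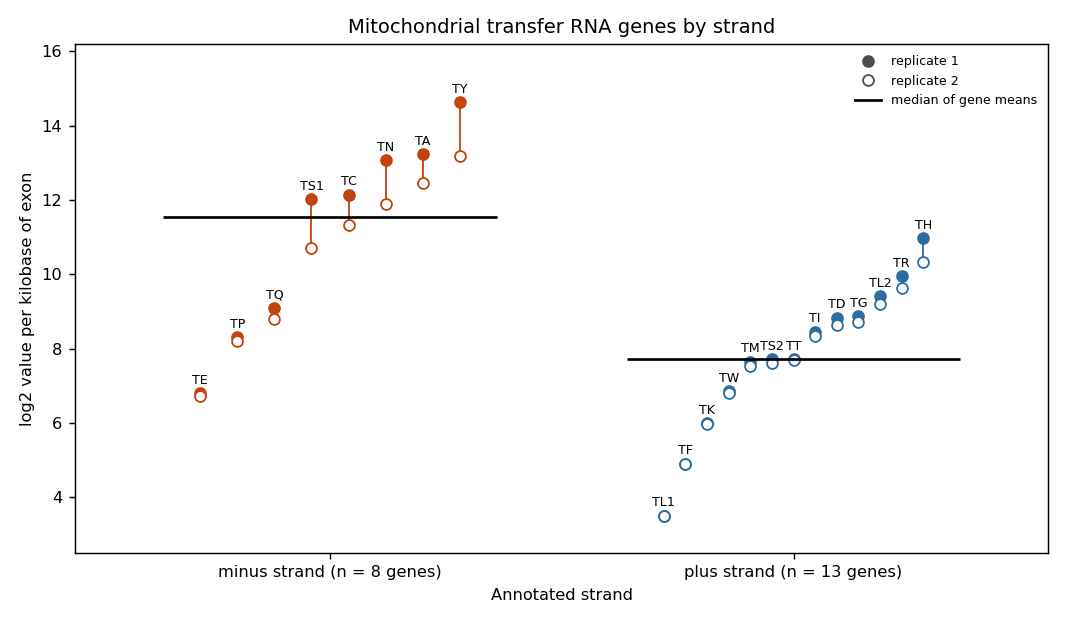
log2 value per kilobase of exon (vertical axis) of the mitochondrial transfer RNA genes, 8 on the minus and 13 on the plus strand (horizontal axis), each gene joined between replicate 1 (filled) and replicate 2 (open). Black bars mark medians of 11.55 and 7.70, and MT-TE, MT-TP and MT-TQ lie within the plus-strand range.

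Neighbours showed the contrast over short distances. MT-TA stood 6.02 log2 units above MT-TW, although only 7 bases separate them and both are transfer RNA genes of almost equal length (69 and 68 bases). The gap was 6.38 in replicate 1 and 5.67 in replicate 2. MT-TS1 stood 2.63 above MT-TD, which begins 3 bases beyond it, with 3.19 in replicate 1 and 2.08 in replicate 2. At the tail-to-tail pair printed above, MT-TQ was 0.54 above MT-TI, by 0.63 and 0.46. MT-TP was 0.54 above MT-TT, by 0.59 and 0.50. The exception was MT-TE, which was lower than MT-TT. Its difference was -0.94, with -0.92 in replicate 1 and -0.96 in replicate 2, and 1145 bases lie between these genes. The values of MT-TE lie on steps taken to mean reads in replicate 1 alone, so its replicate 2 difference is not a second measurement. In all, 7 of the 8 minus-strand genes lay above the nearest plus-strand transfer RNA gene with a value, in replicate 1 and in replicate 2. MT-TA, MT-TN, MT-TC and MT-TY share MT-TW as that neighbour, and MT-TE and MT-TP share MT-TT, so these are not 8 separate comparisons.

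The minus-strand transfer RNA genes also differ in base composition, which the choice of members did not use. G made up a median of 28.1% of their bases and ranged from 23.5 to 36.1%, against a median of 15.3% and a range of 10.3 to 19.1% in the plus-strand genes. The strands did not overlap in this measure. Median G and C content together was 43.0% against 35.3%. The part of base composition in the levels was not tested.

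The 13 protein-coding genes were all detected, with a median of 8.76 log2 units per kilobase. Complex I, the NADH dehydrogenase that feeds electrons into the chain, has 7 mitochondrial subunit genes. MT-ND5 (ENSG00000198786, chrM:12337-14148) was the highest protein-coding gene per kilobase at 11.58 in replicate 1 and 9.70 in replicate 2. MT-ND4L had 10.11 and 9.53, MT-ND4 10.39 and 8.74, and MT-ND3 10.06 and 8.71. MT-ND1 was lower at 8.36 and 7.27, and MT-ND2 the lowest of all 13 at 6.41 and 5.92. MT-ND6, the single protein-coding gene on the minus strand (chrM:14149-14673), had 8.13 and 7.57. It adjoins MT-ND5 with no base between them and was lower, with a difference of -2.79 (-3.45 in replicate 1 and -2.13 in replicate 2). Its difference from MT-CYB, on its other side, was -1.26.

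Cytochrome b of complex III, MT-CYB, had 9.87 per kilobase in replicate 1 and 8.34 in replicate 2. The 3 catalytic-core subunits of cytochrome c oxidase, complex IV, were MT-CO3 at 10.49 and 8.97, MT-CO1 at 9.31 and 8.22, and MT-CO2 at 8.34 and 7.52. ATP synthase, complex V, has the membrane subunit genes MT-ATP8 at 8.70 and 8.38 and MT-ATP6 at 8.93 and 7.91. MT-ATP8 and MT-ATP6 overlap on the plus strand by 46 bases at chrM:8527-8572, and reads in this shared stretch cannot be assigned to either gene, so their values are uncertain to that extent.
Shared by MT-ATP8 and MT-ATP6: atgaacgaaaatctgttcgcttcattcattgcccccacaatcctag
MT-ND4L and MT-ND4 share 7 bases in the same way. Ordered by mean level per kilobase, each protein-coding gene lay closer to the next than the larger SD of the pair, except MT-ND2 (6.17 ± 0.35), which fell 1.65 below MT-ND1 (7.81 ± 0.77). All 13 genes were higher in replicate 1, so these SDs hold a shared shift and do not show whether an order held within each library. Some neighbours in this order kept it in both libraries, such as MT-ATP6 above MT-CO2. Others did not, such as MT-ND4L and MT-CO3. The order of the deposited levels was close in the 2 libraries (Spearman's rho 0.94 over 13 genes of the same libraries). The level per kilobase of these genes tended to be higher further along the genome (rho 0.57 with the start position, 13 genes). The same relation was weaker over all 36 members (rho 0.29) and near 0 over the 21 transfer RNA genes (rho 0.09). Neighbouring genes share precursors and the annotation's direction, and these correlations are descriptions.

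**Figure D3:**
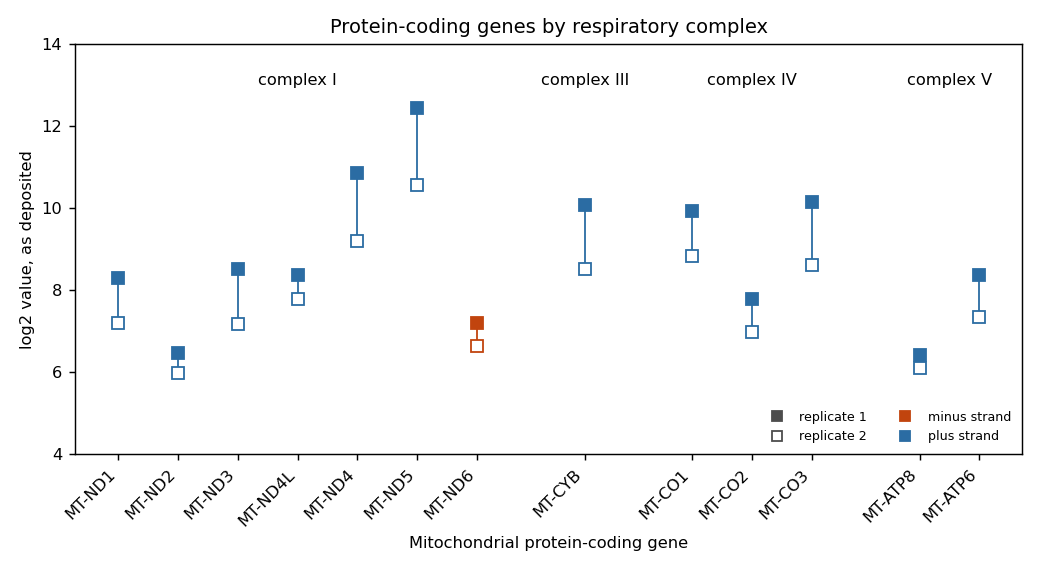
Deposited log2 values (vertical axis) of the 13 mitochondrial protein-coding genes grouped by respiratory complex and, within it, by place on the genome (horizontal axis), with replicate 1 filled and replicate 2 open. Every gene is higher in replicate 1, from MT-ATP8 with 6.43 and 6.11 to MT-ND5 with 12.43 and 10.56.

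Both ribosomal RNA genes were low per kilobase. MT-RNR2, the large-subunit ribosomal RNA, had 4.86 in replicate 1 and 4.94 in replicate 2, and MT-RNR1, the small-subunit ribosomal RNA, had 3.61 and 3.63. MT-RNR2 lay at percentile 81.1 and MT-RNR1 at percentile 70.6 of all genes with a model. The lowest protein-coding gene, MT-ND2 at 6.17, stood 1.27 log2 units above MT-RNR2. MT-TF, MT-RNR1, MT-RNR2 and MT-TL1, which follow each other at the start of the annotated genome with the valueless MT-TV between the ribosomal RNAs, were the 4 lowest members per kilobase.

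The libraries differed at these genes. Of the 36 members, 34 were higher in replicate 1, against 64.1% of all genes and 55.6% of detected genes. A difference of at least 2-fold in favour of replicate 1 was reached by 11 members, against 0.182% of the 6576 detected genes (12 genes). At 2-fold in either direction the share of detected genes was 0.198%, or 13 genes, and the remaining 2 were PDZD8 (12.90 in replicate 1, 11.87 in replicate 2) and ENSG00000290038 (12.40 and 13.62). At 1.5-fold, 15 members were higher in replicate 1, against 0.669% of detected genes (44 genes, with these 15 among them). The members' share of the summed linear value of all genes was 0.943% in replicate 1 and 0.343% in replicate 2, a ratio of 2.75. The 5 minus-strand transfer RNA genes from MT-TA to MT-TS1 held 0.203% in replicate 1 and 0.0849% in replicate 2, and the other 16 transfer RNA genes together 0.0263% and 0.0201%.

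The deposited values of low genes lie close together in both libraries, so each member was set beside the genes outside the mitochondrial genome whose mean log2 value lay within 0.5 of its own. For 13 members no such gene had as large a difference in favour of replicate 1, namely 9 protein-coding and 4 transfer RNA genes. MT-ND5 had deposited values of 12.43 in replicate 1 and 10.56 in replicate 2, a difference of 1.87, while the 58 genes of like level reached at most 0.95. MT-ND4 had 10.85 and 9.20, a difference of 1.65 against at most 0.86 among 227 genes. MT-TY had 10.71 and 9.27, a difference of 1.44 against at most 0.86 among 235 genes. MT-CYB (10.06 and 8.53) and MT-CO3 (10.14 and 8.62) differed by 1.54 and 1.52, and MT-ND3 (8.53 and 7.18) by 1.35. Of these genes MT-TY alone is annotated on the minus strand, so the difference was present at genes annotated on either strand. Whether it was present in RNA of both strands is uncertain, since the strand rule of the counting is not given.

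MT-TS1 had deposited values of 8.16 in replicate 1 and 6.85 in replicate 2, a difference of 1.31. At a like mean level MT-CO2, on the plus strand, had 7.79 and 6.98, a difference of 0.82. The other 5 members beyond every gene of like level were MT-TN (9.30 and 8.12), MT-CO1 (9.94 and 8.84), MT-ND1 (8.30 and 7.20), MT-ATP6 (8.38 and 7.35) and MT-TC (8.23 and 7.40). Their differences ran from 1.18 for MT-TN to 0.82 for MT-TC. MT-TA had 9.37 and 8.61, a difference of 0.76, and 1 of 389 genes of like level differed as much.

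Not every high member differed so widely. MT-ND4L had 8.36 in replicate 1 and 7.78 in replicate 2, a difference of 0.58 that 7 of 601 genes of like level reached. MT-ND6 had 7.20 and 6.64, a difference of 0.56 that 6 of 764 genes reached, and MT-TH 7.11 and 6.49, a difference of 0.62 that 4 of 772 reached. MT-ND2 (6.47 and 5.98) differed by 0.50 and MT-ATP8 (6.43 and 6.11) by 0.32, with 8 of 883 and 42 of 869 genes at least as far apart. Over the 36 members the difference followed the mean level (Spearman's rho 0.93), a description that the narrowing of differences at low values enters.

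At lower levels the differences were smaller. MT-TQ (5.29 in replicate 1, 4.99 in replicate 2) differed by 0.30, which 20 of 1160 genes of like level reached, and MT-TR (6.003 and 5.67) by 0.33, which 37 of 989 reached. MT-TL2 (5.59 and 5.38) differed by 0.22, with 110 of 1050 genes at least as far apart. MT-TD (4.95 and 4.75) differed by 0.21 and MT-TG (5.00 and 4.84) by 0.16. The transfer RNA genes with lower means differed by 0.12 or less. Among them MT-TM, MT-TS2, MT-TE, MT-TF and MT-TL1 lie on steps taken to mean reads in replicate 1 alone. Their small differences are then no sign that the libraries agree. The median difference was 1.10 for the protein-coding genes, 0.16 for the transfer RNA genes and 0.02 for all detected genes. These classes sit at different levels, with median deposited values of 7.87 for the protein-coding and 4.85 for the transfer RNA genes. Among transfer RNA genes with a linear value of at least 50 in both libraries the median difference was 0.82. Within all transfer RNA genes it was 0.79 on the minus strand and 0.10 on the plus strand, which also sit at different levels. The part of level in the contrasts between classes and between strands was not tested.

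The ribosomal RNA genes were the 2 members that were not higher in replicate 1. MT-RNR2 had deposited values of 5.50 in replicate 1 and 5.58 in replicate 2, a difference of -0.08 with an SD of 0.06, and the like SD among 1041 genes of like level was 0.10. MT-RNR1 had 3.54 and 3.56, a difference of -0.02. The difference of these genes changed direction when the libraries were scaled to the same summed value outside the mitochondrial genome, with a median of 0.04 in place of -0.05. No direction is therefore given for the ribosomal RNA genes. At a level like that of MT-RNR2, MT-TL2 and MT-TR were higher in replicate 1 by 0.22 and 0.33.

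**Figure D4:**
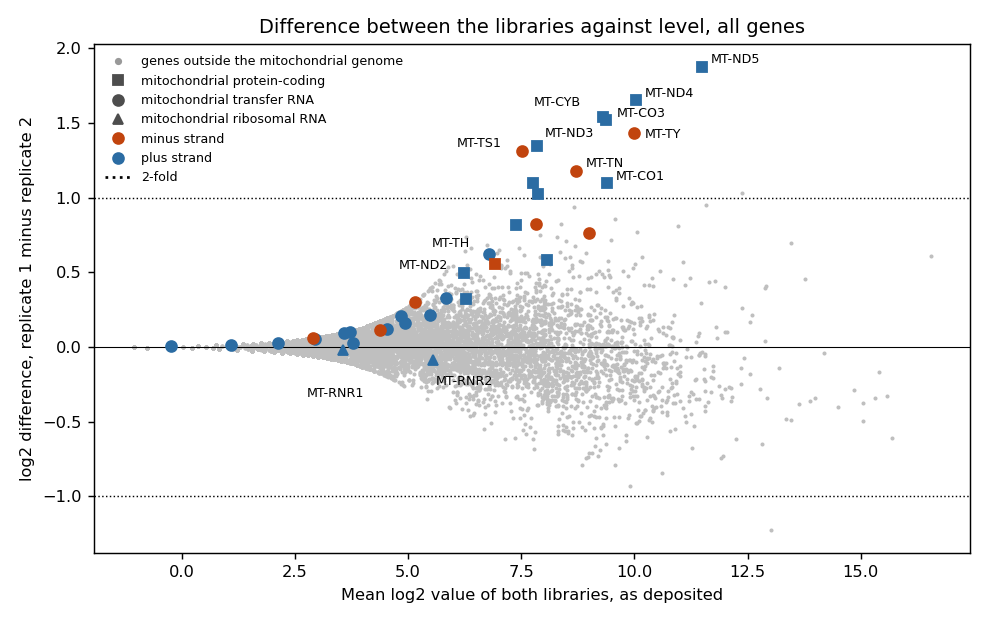
log2 difference, replicate 1 minus replicate 2 (vertical axis), against the mean deposited log2 value (horizontal axis), with genes outside the mitochondrial genome in grey and the 36 members by class (symbol) and strand (orange minus, blue plus). Dotted lines mark 2-fold, and 11 members lie above the upper one, led by MT-ND5 at 1.87.

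Nuclear genes that act on the mitochondrial genome were looked at in 2 lists. In both, 0 genes were 2-fold apart between the libraries in either direction, which at a background of 0.198% of detected genes says nothing particular about so few genes. Of 36 genes of mitochondrial transcription and RNA processing, 12 had a value and 8 were detected. Their median difference was 0.07, with a range of -0.34 to 0.24. TRNT1, which adds the CCA end to transfer RNAs, had 10.92 in replicate 1 and 10.76 in replicate 2, and SLIRP, a stabiliser of mitochondrial messenger RNA, 7.77 and 7.53. PRORP, the nuclease subunit that cuts the 5′ ends of mitochondrial transfer RNAs, had 5.96 and 6.31, and TEFM, a transcription elongation factor, 5.21 and 5.30. POLRMT, the mitochondrial RNA polymerase, stood at 0.23 in both libraries. Of 17 genes of mitochondrial DNA replication and the nucleoid, 11 had a value and 6 were detected, with a median difference of 0.01 and a range of -0.22 to 0.14. POLG, the catalytic subunit of the mitochondrial DNA polymerase, had 7.02 and 7.21, and TWNK, the replicative helicase, 6.67 and 6.89. In each list a gene counted as detected has exactly the values of MT-TS2, taken to mean reads in replicate 1 alone. Its detection is then no sign of reads in replicate 2.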

How the data were processed

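The deposited values are log2, 1 for each gene and library, although the tables are named as counts. Per the submitters' processing notes, FastQC 0.11.5, STAR 2.6.1a and the build hg38 were used. No source used here gives the counting tool, its strand rule, the transform or the read length. Differences between the libraries shrink towards 0 at low values, so a low gene's SD understates its error. From the deposited values were computed the mean and SD over 2 libraries, the difference (replicate 1 minus replicate 2), the linear value (2 to the power of the log2 value) and the log2 value per kilobase of GENCODE 29 exon. With 1 group of 2 libraries no test was run. Thresholds were a linear value of at least 10 in both libraries (detected) and 2-fold. Every member was named, and up to 4 nuclear genes of highest mean per list, plus POLRMT, named after its value was seen. FASTKD4 was not matched as a symbol, its current name TBRG4 being listed. The members and lists were chosen with earlier results of these data known. Calculations were checked on simulated data. Python 3.11.15, numpy 2.4.6, pandas 2.3.3, Biopython 1.88 and matplotlib 3.10.9 were used.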

Additional observations from a re-analysis of the deposited data

How the results depend on the processing

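Of the alternatives tried, 3 moved a result beyond the spread used here (between libraries for levels and shares, 0.185 over detected genes for differences), and 1 turned a direction within that spread. Among detected members alone, the gap between minus-strand and plus-strand transfer RNA genes was 3.01 log2 units per kilobase in place of 3.84, since the 4 undetected plus-strand genes and 1 minus-strand gene leave. Without division by length the protein-coding median was 7.87 in place of 8.76. At a linear value of at least 50 the transfer RNA difference was 0.82 in place of 0.16, since lower genes leave. With the libraries scaled to equal summed values outside the mitochondrial genome, the ribosomal RNA difference was 0.037 in place of -0.05. No ribosomal RNA gene reaches 50, so that alternative gave no value. Without replicate 2 and without replicate 1, the gap was 4.37 and 3.32, the protein-coding median 9.31 and 8.34, and the members' share 0.943% and 0.343%, against a mean of 0.643%. Deposited values of low genes are drawn together between the libraries. Leaving a library out may therefore not remove all of its part in the values that remain. The count of members 2-fold higher in replicate 1 was 11 under every alternative but the 1.5-fold threshold, where it was 15. No paired analysis was possible because all libraries belong to 1 group. Estimated depth, about 2100000 and 1600000 reads, limits what the lowest members show.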

Other observations

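Nuclear copies of mitochondrial sequence were also listed. Of 404 genes whose symbols mark them as such copies, 48 had a value and 9 were detected, with a median log2 value of 2.21, against 45.5% detected and a median of 3.06 among all genes with a value. MTATP6P1, a pseudogene named for MT-ATP6, was the highest at 5.79 in replicate 1 and 5.58 in replicate 2, followed by MTND4P20 (3.94 and 3.82), MTCO3P24 (3.77 and 3.66) and MTCYBP14 (3.60 and 3.70). MTCO3P24 has exactly the values of MT-TM, taken to mean reads in replicate 1 alone. All copies but MTATP6P1 were low enough for such steps to be looked for. Of these 47, 42 lay on steps taken to mean reads in replicate 1 alone and 4 on those for replicate 2 alone. Detection of a copy such as MTND4P20 or MTCYBP14 therefore need not mean reads in both libraries. How reads that match both a copy and the mitochondrial gene were assigned is not stated, so values of both are uncertain to that extent.

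The lowest values took few forms. The 2 values of MT-TL1 (-0.23 and -0.24) were shared exactly with 752 genes outside the mitochondrial genome, those of MT-TE with 169 and those of MT-TF with 129. Their pairs of values lie on evenly spaced steps where the libraries are furthest apart for the level, which was taken to mean reads in replicate 1 alone. Of the 9 members with a summed linear value up to 30, 5 were on these steps for replicate 1 and 0 for replicate 2, at about 2 reads for MT-TL1, 5 for MT-TF, 18 for MT-TE, 29 for MT-TS2 and 32 for MT-TM. Among all 9103 genes as low, 61.3% were on the steps for replicate 1 and 19.3% on those for replicate 2, and among 47 nuclear copies 42 and 4. The replicate 2 value of these 5 members is then no sign of reads in replicate 2.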
